A study of Mus musculus with 28 samples.

Results

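The effect that social and metabolic stress had in common was read as the mean of 2 changes, both measured in frontal cortex from male mice of the strain C57Bl/6: that of chronic social stress (CSS) against its controls, and that of a model of type 2 diabetes (T2D) against its own. It took all 28 libraries of the series, 8 CSS, 8 CSS controls, 6 T2D and 6 T2D controls, and the 14888 genes listed in both cohorts' tables, out of 15263 listed in either. Each cohort's change was taken against its own controls before averaging, so a level that differed between the cohorts did not enter. The CSS mice had lived in isolation for 7 weeks, with 2 confrontations a day in the last 20 days, and they and their controls were 21 weeks old. The T2D mice had received 75 mg/kg streptozotocin, which destroys pancreatic beta cells, and had eaten for 21 weeks a diet in which fat supplied 43.2% of the energy. They and their controls were 30 or 31 weeks old. The labels give no treatment of the controls beyond control conditions, and cohort, age and date of work cannot be told apart between the cohorts. Total RNA from the frontal cortex of 1 hemisphere was sequenced after removal of ribosomal RNA, with 1 library per mouse.

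Social stress acts on the brain through glucocorticoids and neuronal activity, and diabetes through the supply of glucose, lipids and insulin. The frontal cortex serves planning and the control of mood, and both states are studied there. Bulk tissue holds neurons, glia, vessels and some of the covering meninges. Microglia, the resident immune cells, make the complement component C1q, which tags synapses and debris for uptake. A level in bulk RNA is therefore a sum over cell types, and fewer cells of a type cannot be told apart from less RNA per cell.

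The libraries held 12.1 to 37.5 M estimated counts, with the ranges of the 4 groups overlapping. The summed level of 16 markers of excitatory cortical neurons was 2113 to 3197 CPM in CSS, 2314 to 3211 CPM in its controls, 1753 to 3167 CPM in T2D and 2307 to 2961 CPM in its controls, where CPM scales a gene's counts to a library of 1 M counts. Some libraries stood apart. A slope of log2 level on log2 transcript length (a gene's exon bases) was taken per library, after subtracting each gene's mean over the cohort. Relative to that mean, CSS 5 had the highest slope (0.105) and T2D 1 the lowest (-0.0798). CSS control 2 was the deepest at 37.5 M counts. RNA integrity (RIN), total, mitochondrial share, the share of the 50 highest genes, the number of genes at 0 and the slope on length were compared between treated and control libraries by a two-sided exact permutation within cohorts, and none of the 6 passed after adjustment (smallest p 0.0809, adjusted 0.486, for the slope). In CSS alone the slope averaged 0.0183 ± 0.0375 (SD, n = 8) against -0.0183 ± 0.0299 (SD, n = 8) in its controls, with an exact permutation p of 0.0385 before adjustment. Because levels were centred on the cohort's mean, these 2 averages mirror each other by construction. The part of the slope in the results was not tested beyond a fit with the slope as a covariate, given with the results.

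Averaged over both stresses, 38 genes passed an adjusted p of 0.05 in edgeR's quasi-likelihood test, which is 0.255% of the genes tested. Of these, 25 fell (0.168%) and 13 rose (0.0873%), and the changes were small. The median change was 1.25-fold, 5 genes exceeded 1.5-fold and 1, Anpep, exceeded 2-fold. The genes that fell include the mitochondrial phosphatase Ppm1k, calmodulin 3 (Calm3), the signal recognition particle subunits Srp54a and Srp19 and the S6 kinase Rps6kb2. Those that rose include the collagen Col1a1, the laminin chain Lamc3, aminopeptidase N (Anpep), the histone demethylase Kdm6b and the neuronal protein Nav1, together with 6 genes that do not code for protein. All 38 moved the same way in both cohorts. Of them, 19 had an unadjusted p under 0.05 in each cohort (1.02% of all genes had this with 1 sign). Choosing genes by the average of the same 2 changes favours both counts, so neither is separate evidence of a shared change.

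**Figure D1:**
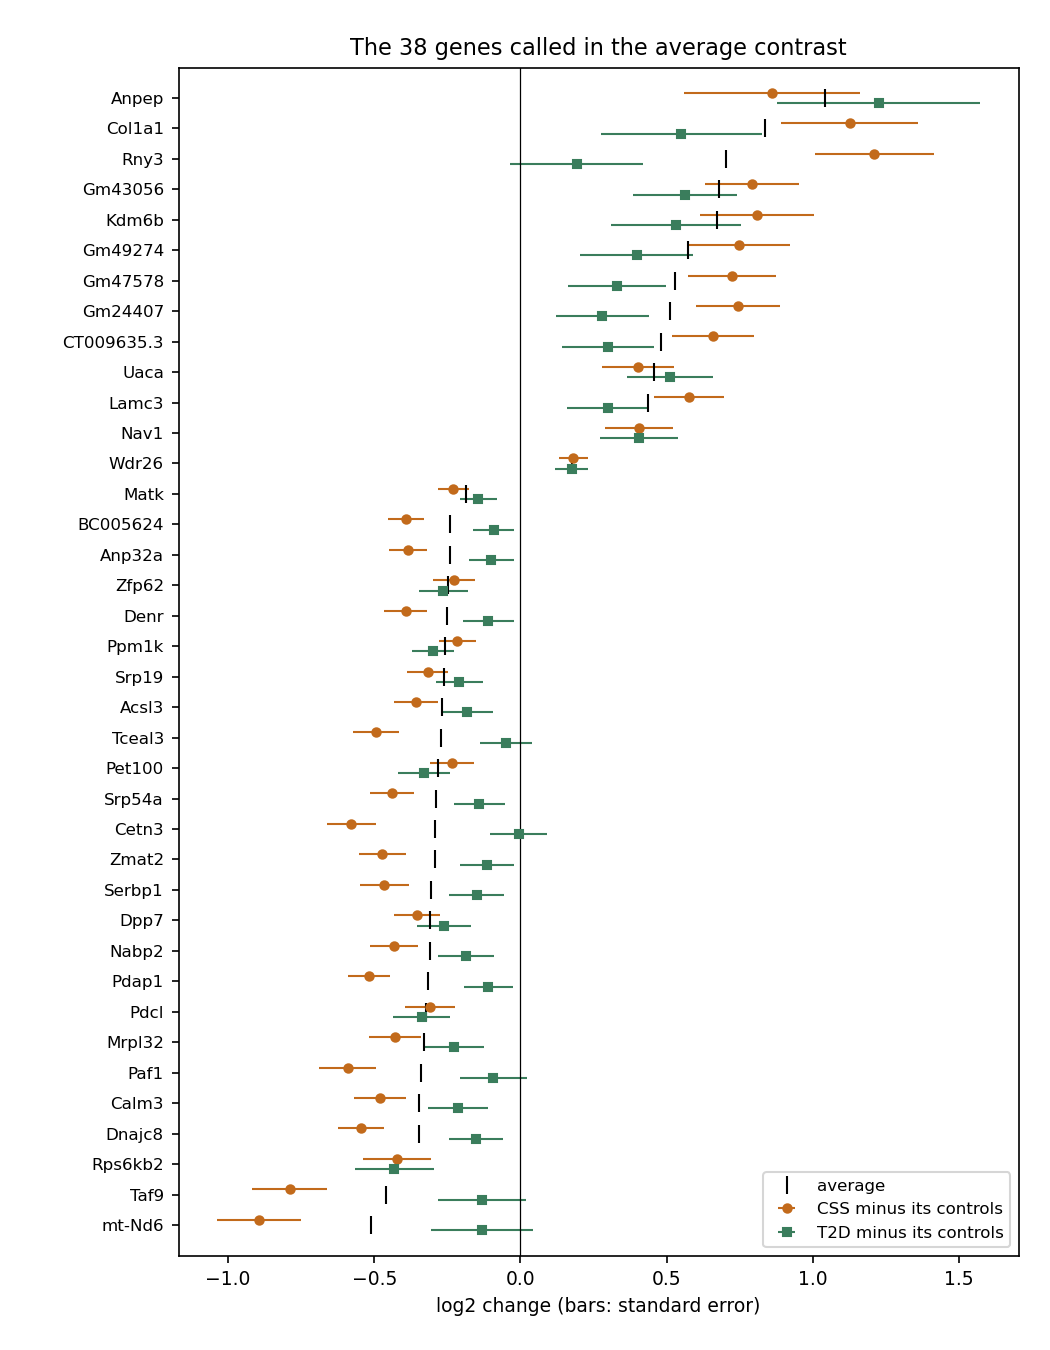
The 38 genes past the threshold, ordered by average change. The x axis is log2 change against the cohort's own controls, circles are CSS (n = 8 and 8), squares are T2D (n = 6 and 6), bars are standard errors of the fit and vertical ticks are the average. Anpep is at the top and mt-Nd6 at the bottom, and for 30 of the 38 genes the CSS change is the larger.

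The size of the change was seldom equal in the cohorts. Over the 38 genes the log2 changes had a median of -0.34 in CSS and -0.11 in T2D. Split by direction, the medians were 0.74 and 0.40 for the 13 genes that rose and -0.43 and -0.15 for the 25 that fell. The CSS change was the larger for 30 genes and the T2D change for 8. A test of the difference between the 2 changes passed for none of the 38 (smallest adjusted p in edgeR's quasi-likelihood test 0.0672, for Cetn3), which does not show that the changes were equal: 15 had an unadjusted p under 0.05 for it, as did 12.4% of all genes. Over all genes it passed for 12, or 0.0806% (7 with the CSS change above, 0.047%, and 5 below, 0.0336%). In CSS alone 506 genes passed (3.4%), 186 higher (1.25%) and 320 lower (2.15%), and 33 of the 38 were among them. In T2D alone none of the 14888 genes did by edgeR, while 1330 (8.93%) had an unadjusted p under 0.05, DESeq2 called 5 and limma voom called none.

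Among the genes that fell in both cohorts was Ppm1k, the mitochondrial phosphatase that activates branched-chain keto acid dehydrogenase and so the breakdown of leucine, isoleucine and valine (ENSMUSG00000037826, chr6:57506502-57535468, minus strand). The lowest, median and highest library had 140.2, 150.2 and 172 CPM in CSS and 158, 179 and 194 CPM in its controls. They had 117, 141 and 157 CPM in T2D and 146, 178 and 188 CPM in its controls. In both cohorts the treated mice were mostly below the controls, with some overlap. The average log2 change was -0.26 ± 0.05 (standard error of the fit, as for all log2 changes below), a 1.20-fold fall with an adjusted p of 0.0307 by edgeR, made of -0.22 in CSS and -0.30 in T2D. All 8 CSS and all 6 T2D libraries were below the mean of their controls.

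Pdcl, phosducin-like, a cofactor in the folding of G protein beta-gamma dimers (ENSMUSG00000009030, chr2:37350074-37359332, minus strand), had 20.5, 25.8 and 29 CPM in CSS and 24.9, 30.1 and 40.7 CPM in its controls. In the other cohort it had 22.3, 23.9 and 28.2 CPM in T2D and 27.4, 30.6 and 34.4 CPM in its controls. Only the highest T2D library reached into the range of its controls, and every treated library lay below the mean of its controls. The change was -0.31 ± 0.08 in CSS and -0.34 ± 0.10 in T2D, with an average of -0.32 (edgeR adjusted p 0.0354). Rps6kb2, S6 kinase 2, which acts downstream of mTOR (ENSMUSG00000024830, chr19:4153991-4163354, minus strand), had 14.4, 17.8 and 20.7 CPM in CSS and 14.7, 25.2 and 31.5 CPM in its controls, and 13.6, 16 and 17.6 CPM in T2D and 16, 21.5 and 26.1 CPM in its controls. It fell by 0.43 on the log2 scale on average (edgeR adjusted p 0.0354), with -0.42 in CSS and -0.43 in T2D. Its groups overlapped in both cohorts, and 23.7% of its exon bases lie opposite Ptprcap, so reads of both may be mixed if strand was not used.

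Pet100, a factor for assembly of cytochrome c oxidase (ENSMUSG00000087687, chr8:3621548-3625848, plus strand), was the only one of the 38 genes whose T2D libraries did not overlap their controls, with 10.4, 12.1 and 12.9 CPM in T2D and 13.7, 14.8 and 16.8 CPM in its controls. Over all genes such separation in T2D occurred for 22 genes (0.148%), and choosing genes by the average favours it. In CSS the libraries overlapped, with 13.6, 15.8 and 19.3 CPM in CSS and 16.5, 18.9 and 21.8 CPM in its controls. The average log2 change was -0.28 ± 0.06 (edgeR adjusted p 0.0354), and 52.6% of the exon bases of Pet100 overlap Pcp2 on the opposite strand. Mrpl32, a protein of the mitochondrial ribosome, fell by 0.33 on average, with -0.43 in CSS and -0.23 in T2D (edgeR adjusted p 0.0354). Of 77 tested proteins of the mitochondrial ribosome it was the only one called (0.255% of all genes), 16 were above 0 in the average, and the median of the list was -0.05. Of these 77, 7 had an unadjusted p under 0.05 by edgeR in the average (14.8% of all genes). For the nuclear-encoded respiratory chain 0 of 77 genes were called, 11 had an unadjusted p under 0.05 in the average, as did 14.8% of all genes, and the median was -0.01, against -0.002 over all genes.

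Calm3, 1 of the genes for calmodulin, the calcium sensor of synaptic signalling (ENSMUSG00000019370, chr7:16915379-16924114, minus strand), had 812, 1044 and 1142 CPM in CSS and 1132, 1417 and 1839 CPM in its controls. In T2D the values were 868, 964 and 998 CPM in T2D and 924, 1135 and 1227 CPM in its controls. The CSS and control libraries just met, and the T2D libraries overlapped the lower controls. Its average log2 change was -0.35 ± 0.07 (edgeR adjusted p 0.0354), with -0.48 in CSS and -0.21 in T2D. Dpp7, a lysosomal dipeptidyl peptidase, had 14.3, 17 and 19.9 CPM in CSS and 17.6, 21.9 and 23.3 CPM in its controls, and 15.8, 17.2 and 20.9 CPM in T2D and 17.1, 20.8 and 25 CPM in its controls. The average change of Dpp7 was -0.31 ± 0.06 (edgeR adjusted p 0.0354), and T2D 4 was its highest T2D library at 20.9 CPM, well apart from the others.

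Srp19, a subunit of the signal recognition particle that brings nascent secretory proteins to the endoplasmic reticulum, fell by 0.26 on average (edgeR adjusted p 0.0354), with -0.32 in CSS and -0.21 in T2D. Srp54a, the GTPase subunit of the same particle, fell by 0.29 (edgeR adjusted p 0.0354), with most of the change in CSS (-0.44) and less in T2D (-0.14, unadjusted p 0.115). Acsl3, which activates long-chain fatty acids with coenzyme A, changed by -0.27 on average, Matk, a kinase that inhibits Src family kinases, by -0.19, and the zinc finger gene Zfp62 by -0.25. Each of these 3 had an unadjusted p under 0.05 in both cohorts. For Zfp62 the change was -0.23 in CSS and -0.26 in T2D. On the log2 scale, 6 of 8 CSS libraries and 6 of 6 T2D libraries were below the mean of their controls.

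**Figure D2:**
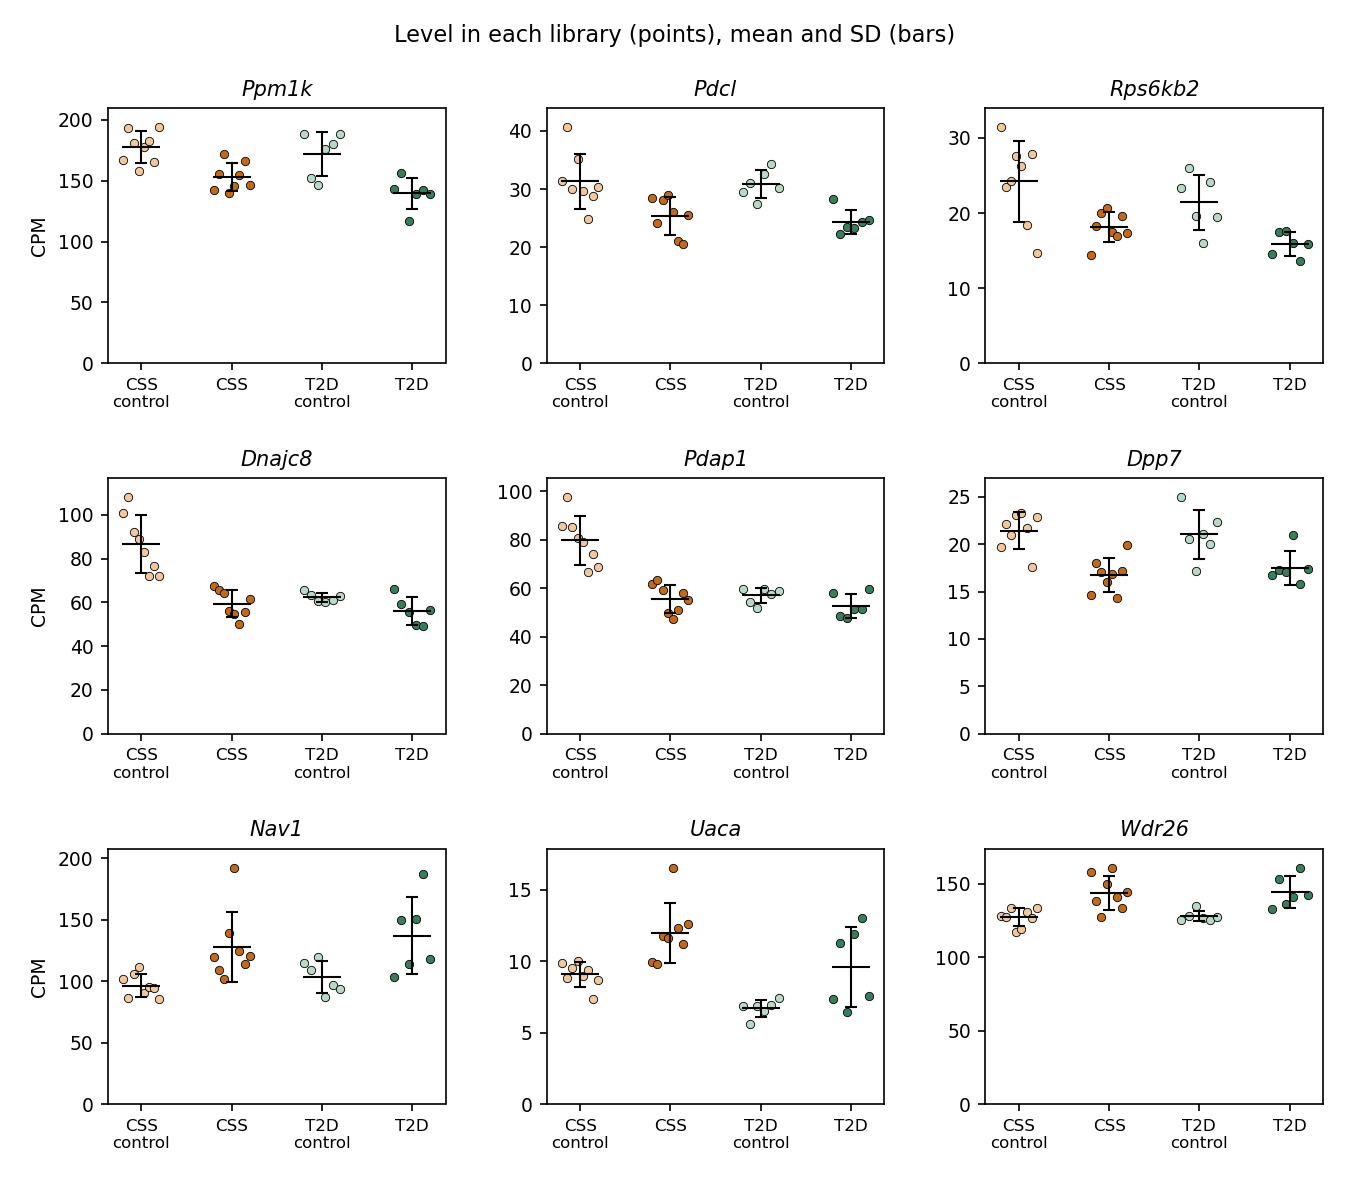
Level in CPM (y axis, from 0) of 9 genes in every library, by group (x axis). Points are libraries, horizontal bars the mean and vertical bars the SD, with 8, 8, 6 and 6 libraries. Ppm1k, Pdcl and Rps6kb2 are lower in both treated groups, Dnajc8 and Pdap1 are high mainly in the CSS controls, and the highest Nav1 and Uaca point in CSS is CSS 5.

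Among the genes that rose, Wdr26, a subunit of the CTLH ubiquitin ligase (ENSMUSG00000038733, chr1:181173228-181212001, minus strand), had the smallest average change. It had 127, 142 and 161 CPM in CSS and 117, 128 and 133.7 CPM in its controls, and 132.9, 142 and 161 CPM in T2D and 125, 127 and 134.7 CPM in its controls. The groups overlapped in both cohorts, and all 14 treated libraries were above the mean of their controls. The average was 0.18 ± 0.04 (edgeR adjusted p 0.0354), with 0.18 in both CSS and T2D. Nav1, neuron navigator 1, a microtubule-associated protein of growing neurites (ENSMUSG00000009418, chr1:135434580-135607295, minus strand), had 101.8, 120.3 and 193 CPM in CSS and 85.3, 95 and 112 CPM in its controls, and 103.3, 133.8 and 187 CPM in T2D and 87.1, 102.9 and 119.8 CPM in its controls. Every treated library was above the mean log2 level of its controls, while the highest controls reached into the treated ranges. In CPM, T2D 1 (103.3) was just under the mean of the T2D controls (103.5). The average change of Nav1 was 0.41 ± 0.09 (edgeR adjusted p 0.0395), with 0.41 in CSS and 0.41 in T2D. Without CSS 5, whose Nav1 level was 193 CPM, the CSS change was 0.30 and the average 0.35 (edgeR adjusted p 0.0549).

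Uaca, a protein with coiled coils and ankyrin repeats linked to apoptosome regulation, had 9.82, 11.7 and 16.5 CPM in CSS and 7.33, 9.16 and 10.0 CPM in its controls, and 6.46, 9.41 and 13 CPM in T2D and 5.56, 6.87 and 7.42 CPM in its controls. In T2D, 3 libraries lay far above the controls and the others within or near their range. The average was 0.46 ± 0.10 (edgeR adjusted p 0.0354), and without CSS 5 it was 0.42 (edgeR adjusted p 0.0568). Kdm6b, the demethylase that removes methyl groups from a lysine of histone H3 (ENSMUSG00000018476, chr11:69398508-69413675, minus strand), had 7.90, 12.8 and 20.0 CPM in CSS and 5.76, 7.66 and 9.59 CPM in its controls. In the T2D cohort it had 8.56, 16.2 and 18.7 CPM in T2D and 5.03, 8.98 and 15.9 CPM in its controls, with broad overlap. Its average change was 0.67 ± 0.15, a 1.59-fold rise (edgeR adjusted p 0.0395). Of 35 tested enzymes of histone methylation and deacetylation it was the only one called (0.255% of all genes), 27 were above 0 in the average, and the median of the list was 0.05. Of the 35, 9 had an unadjusted p under 0.05 by edgeR in the average (14.8% of all genes).

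The largest rises were those of Anpep and Col1a1. Anpep, aminopeptidase N, found on brain pericytes (ENSMUSG00000039062, chr7:79821803-79861059, minus strand), had 1.03, 2.74 and 4.26 CPM in CSS and 1.02, 1.31 and 2.14 CPM in its controls, and 1.12, 3.38 and 6.28 CPM in T2D and 0.67, 1.21 and 2.37 CPM in its controls. Its groups overlapped in both cohorts, and its level was low in all of them. The average log2 change was 1.04 ± 0.23, a 2.06-fold rise (edgeR adjusted p 0.0395), with 0.86 ± 0.30 in CSS and 1.23 ± 0.35 in T2D. Of 13 tested pericyte and smooth muscle markers Anpep was the only one called, 10 were above 0 in the average, and the median change was 0.18. Of the 13, Anpep included, 6 had an unadjusted p under 0.05 by edgeR in the average (14.8% of all genes). The mean log2 level of these markers was above that of the controls in 7 CSS libraries and below it in 1. In T2D it was above in 5 libraries and below in 1. Of members outside the naming rule, the smooth muscle myosin Myh11 had 0.70 (edgeR adjusted p 0.111). The pericyte genes Rgs5, Vtn and Kcnj8 had 0.03, -0.04 and 0.02. The remaining members are not given singly, so these values do not separate pericytes from smooth muscle.

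Col1a1, the main chain of type I collagen, made by meningeal and perivascular fibroblasts (ENSMUSG00000001506, chr11:94936224-94953042, plus strand), had 4.35, 8.64 and 14.8 CPM in CSS and 2.89, 4.39 and 5.73 CPM in its controls. In T2D it had 3.13, 5.86 and 12 CPM in T2D and 3.10, 3.93 and 6.18 CPM in its controls, and 4 of 6 libraries were above the mean of the controls. The average was 0.84 ± 0.18 (edgeR adjusted p 0.0395), with 1.13 in CSS and 0.55 (unadjusted p 0.0547) in T2D. All 17 markers of meningeal fibroblasts were above 0 in the average and 15 were above 0 in each cohort. Col1a1 alone was called, 9 had an unadjusted p under 0.05 in the average (14.8% of all genes), and the median of the list was 0.43. Their summed level was 93.8 to 268 CPM in CSS, 85.1 to 186 CPM in its controls, 98.1 to 233 CPM in T2D and 92.9 to 118 CPM in its controls. Relative to the mean of their controls, 7 of 8 CSS libraries but 3 of 6 T2D libraries had a higher mean log2 level of these markers. Lamc3, a laminin chain of basement membranes, rose by 0.44 (edgeR adjusted p 0.0354). Of 24 tested genes of the extracellular matrix list, which does not hold Lamc3, Col1a1 was the 1 called (0.255% of all genes), 21 were above 0 and the median was 0.19. Of the 24, 9 had an unadjusted p under 0.05 by edgeR in the average (14.8% of all genes). The part of the amount of meninges in the dissected tissue in these changes was not tested.

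**Figure D3:**
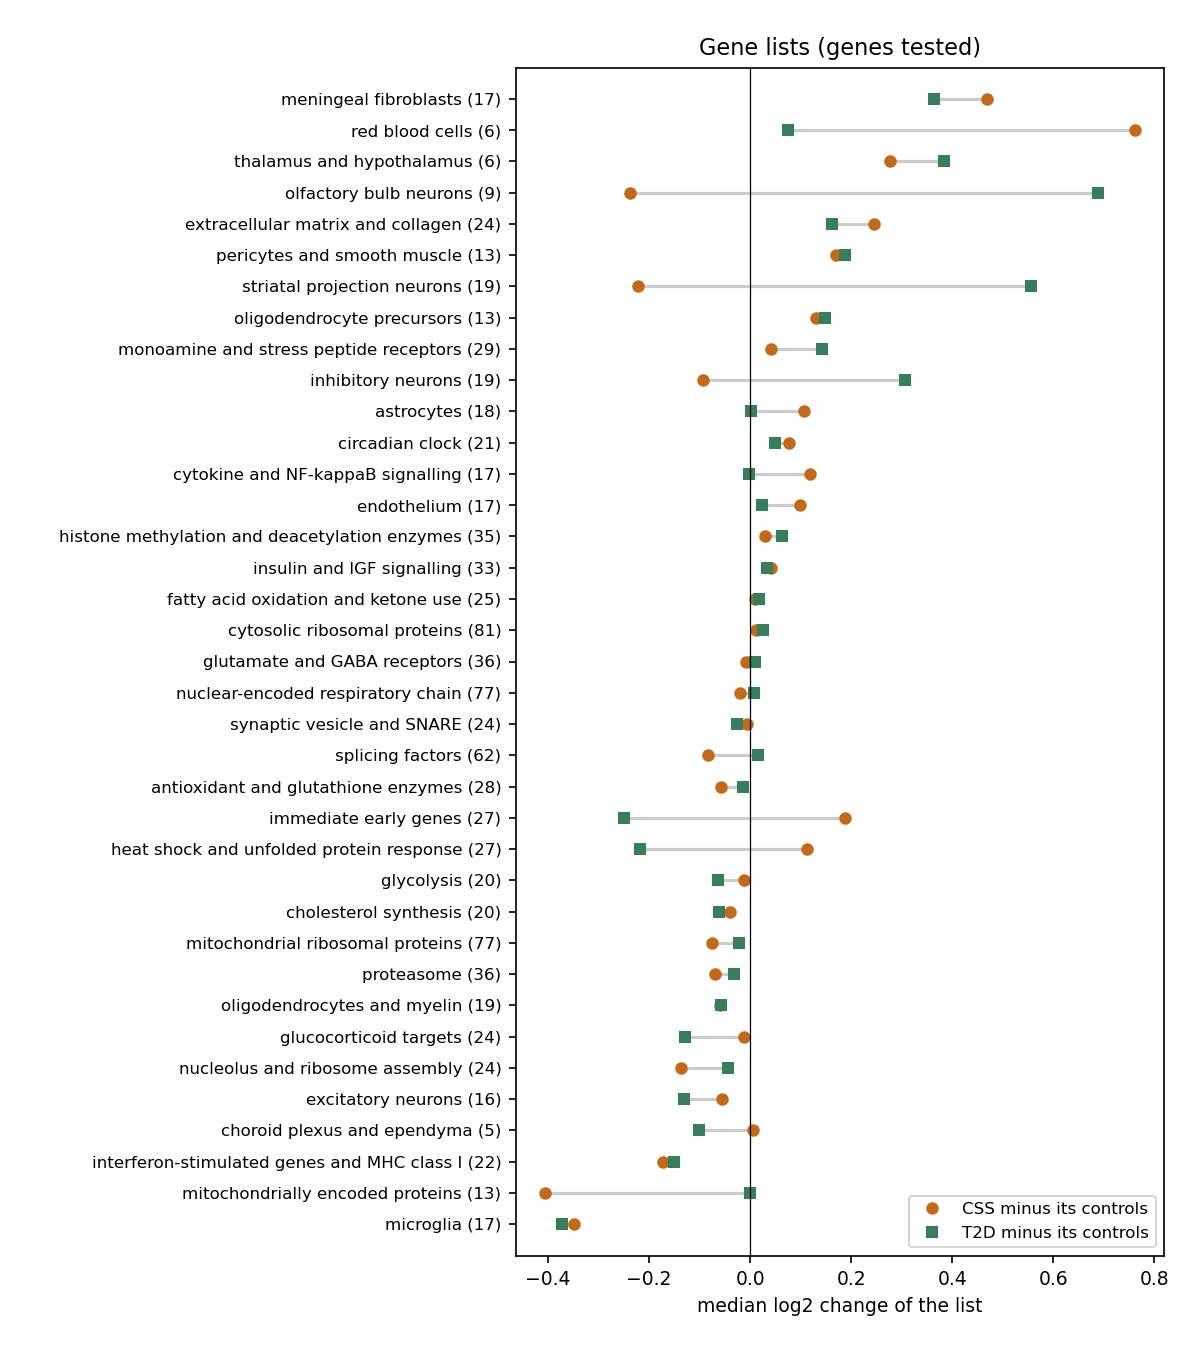
Median log2 change (x axis) of each gene list in CSS (circles) and T2D (squares), each against its own controls, with the number of genes tested in brackets, for lists with at least 5. Microglia (-0.35 and -0.37) and meningeal fibroblasts (0.47 and 0.36) lie on the same side in both cohorts, and striatal markers (-0.22 and 0.56) on opposite sides.

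The promoters of 4 genes with an unadjusted p under 0.05 in both cohorts are shown, as regions from 250 bases before to 50 bases after the RefSeq start (build GRCm38.p6), 5′ to 3′ on the gene's strand. Capitals mark matches, on either strand, to the letters of 8 motifs: the ETS site CCGGAAG, the NRF1 site, the CCAAT box CCAAT, the GC box GGGCGG, the YY1 site AAGATGGCG, the E-box CACGTG, the cyclic AMP response element TGACGTCA and the TATA box TATAAA. Ppm1k and Pdcl fell, and Wdr26 and Nav1 rose. They lie at chr6:57535438-57535737, minus strand, chr2:37359283-37359582, minus strand, chr1:181211929-181212228, minus strand and chr1:135585306-135585605, minus strand. The Nav1 window surrounds a RefSeq start inside the gene as given above, well downstream of the 5′ end of that span.
Ppm1k: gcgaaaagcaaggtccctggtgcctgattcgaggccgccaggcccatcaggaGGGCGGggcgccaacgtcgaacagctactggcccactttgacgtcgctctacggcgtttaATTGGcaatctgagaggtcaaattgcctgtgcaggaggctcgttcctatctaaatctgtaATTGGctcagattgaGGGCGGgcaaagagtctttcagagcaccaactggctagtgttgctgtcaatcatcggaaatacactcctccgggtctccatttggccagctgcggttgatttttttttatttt
Pdcl: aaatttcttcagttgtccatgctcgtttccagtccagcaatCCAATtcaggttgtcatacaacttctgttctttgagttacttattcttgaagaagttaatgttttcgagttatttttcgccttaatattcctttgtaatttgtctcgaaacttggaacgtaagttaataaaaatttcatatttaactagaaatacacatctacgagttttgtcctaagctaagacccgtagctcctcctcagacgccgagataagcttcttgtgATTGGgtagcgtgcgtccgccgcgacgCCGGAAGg
Wdr26: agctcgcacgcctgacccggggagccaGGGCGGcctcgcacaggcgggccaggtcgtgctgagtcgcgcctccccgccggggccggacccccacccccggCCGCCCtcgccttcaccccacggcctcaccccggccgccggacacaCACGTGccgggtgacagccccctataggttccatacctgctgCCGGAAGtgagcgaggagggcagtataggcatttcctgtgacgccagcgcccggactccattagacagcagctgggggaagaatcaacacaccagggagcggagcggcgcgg
Nav1: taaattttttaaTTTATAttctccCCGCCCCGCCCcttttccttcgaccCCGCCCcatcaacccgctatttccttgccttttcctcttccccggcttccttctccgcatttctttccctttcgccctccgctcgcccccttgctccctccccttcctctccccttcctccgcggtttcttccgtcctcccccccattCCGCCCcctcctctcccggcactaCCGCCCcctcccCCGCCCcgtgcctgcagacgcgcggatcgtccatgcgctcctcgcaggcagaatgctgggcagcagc
The promoter of Pdcl is poor in G and C (40%) and holds a CCAAT box on each strand and an ETS site. That of Ppm1k (52.7% G and C) holds CCAAT and GC boxes. Those of Wdr26 (71.3%) and Nav1 (63.3%), which rose, hold GC boxes, with an ETS site and an E-box in Wdr26 and a TATA box in Nav1. RefSeq promoters were matched for 21 of the 25 genes that fell, 4 of the 13 that rose and 11117 genes in all. Among the 21, a CCAAT box was in 11 (38.9% of all 11117 promoters), a GC box in 17 (63.8%), an ETS site in 5 (17.1%) and an NRF1 site in 3 (9.99%). Letters in a window do not show that a factor binds there.

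The other 19 genes had an unadjusted p under 0.05 in CSS but not in T2D. Dnajc8, a J-domain protein associated with the spliceosome, and Pdap1, a protein associated with platelet-derived growth factor, had the smallest adjusted p together with the noncoding gene Gm43056. Dnajc8 (ENSMUSG00000054405, chr4:132535550-132553742, plus strand) had 50.1, 58.9 and 67.4 CPM in CSS and 71.9, 86.2 and 108 CPM in its controls, and these groups did not overlap. In the T2D cohort it had 49.3, 56.2 and 66 CPM in T2D and 60.1, 62.1 and 65.5 CPM in its controls, which overlapped. The change was -0.54 ± 0.08 in CSS and -0.15 ± 0.09 (unadjusted p 0.108) in T2D, with an average of -0.35 ± 0.06 (edgeR adjusted p 0.0186). Pdap1 (ENSMUSG00000029623, chr5:145128769-145140238, minus strand) had 47.4, 56.5 and 63.2 CPM in CSS and 66.6, 79.9 and 97.4 CPM in its controls, and 47.7, 51.3 and 59.6 CPM in T2D and 51.9, 58.3 and 59.7 CPM in its controls. It was apart in CSS and overlapping in T2D, with -0.52, -0.11 and an average of -0.31 ± 0.06 (edgeR adjusted p 0.0186). For both genes the median of the T2D controls was nearer to that of the CSS mice than to that of the CSS controls, though the levels come from separately deposited tables scaled together here and the cohorts differ in age.

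Groups that did not overlap in CSS were found for 7 of the 38 genes, against 0.638% of all genes. All of them were lower (Dnajc8, Pdap1, BC005624, Anp32a, Tceal3, Cetn3 and Taf9). The average holds the CSS change, so choosing genes by it favours such separation. No gene of the 14888 had groups apart in both cohorts. Anp32a, an acidic nuclear phosphoprotein, changed by -0.39 in CSS and -0.10 in T2D. Tceal3, related to elongation factor A, had -0.49 and -0.05, and BC005624 had -0.39 and -0.09. Cetn3, a centrin of the centrosome, was the extreme case, with -0.58 ± 0.08 in CSS and -0.01 ± 0.10 in T2D. Its libraries had 29.8, 34.5 and 39.2 CPM in CSS against 41.9, 49.7 and 62 CPM in the controls, and its average change of -0.29 came almost wholly from CSS.

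Further genes of this kind have known roles with nucleic acids. Zmat2, a zinc finger protein of the spliceosome, changed by -0.47 in CSS and -0.11 in T2D, and Serbp1, an mRNA-binding protein found on ribosomes, by -0.47 and -0.15. Denr, which aids reinitiation of translation, had -0.39 and -0.11, and Nabp2, a binder of single-stranded DNA, -0.43 and -0.19. Paf1, of the elongation complex of RNA polymerase II, had -0.59 and -0.09. Taf9, a subunit of TFIID, had -0.79 and -0.13, and shares 73.8% of its exon bases with Ak6 on the same strand, so its value is uncertain. These 6 passed in the average, with edgeR adjusted p from 0.0354 to 0.0477. As lists, splicing factors had 0 of 62 genes called by edgeR, with 15 at an unadjusted p under 0.05 (14.8% of all genes) and a median of -0.03. Cytosolic ribosomal proteins had 0 of 81 called, 11 at an unadjusted p under 0.05, near that 14.8%, and a median of 0.02. The nucleolus and ribosome assembly list had 0 of 24 called, 9 at an unadjusted p under 0.05, above that 14.8%, and a median of -0.10.

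mt-Nd6, a subunit of respiratory complex I and the mitochondrial protein gene encoded on the light strand, had 16.9, 30.0 and 43.2 CPM in CSS and 42.6, 58.2 and 74.4 CPM in its controls. Only the extremes of these groups met. In T2D it had 14.4, 16.6 and 18.1 CPM in T2D and 12.6, 18.7 and 21.3 CPM in its controls, and these groups overlapped. The change was -0.89 ± 0.14 in CSS and -0.13 ± 0.17 (unadjusted p 0.459) in T2D, with an average of -0.51 (edgeR adjusted p 0.04). It was the only one called (0.255% of all genes) of 13 mitochondrially encoded protein genes, whose median was -0.40 in CSS and near 0 in T2D. By edgeR, 8 of the 13 had an unadjusted p under 0.05 in the average (14.8% of all genes). In the contrast of CSS alone, 5 of the 13 passed after adjustment (3.4% of all genes). The mitochondrial share of counts was 6.84% ± 0.907 (SD, n = 8) in CSS and 7.62% ± 0.645 (SD, n = 8) in its controls, and 6.90% ± 1.23 (SD, n = 6) in T2D and 6.14% ± 0.756 (SD, n = 6) in its controls.

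Of the 13 genes that rose, 6 do not code for protein, against 9.16% of all genes tested. The long noncoding gene Gm43056 (ENSMUSG00000106507, chr5:86683850-86686640, minus strand) had 3.48, 4.84 and 7.23 CPM in CSS and 2.11, 2.81 and 3.97 CPM in its controls, and 5.19, 7.50 and 8.97 CPM in T2D and 2.85, 5.15 and 5.60 CPM in its controls. All 14 treated libraries were above the mean of their controls, and the average was 0.68 ± 0.12 (edgeR adjusted p 0.0186), with 0.79 in CSS and 0.56 in T2D. Gm49274, a pseudogene of 408 exon bases that lie wholly opposite Gm49273, had 0.75 and 0.40. Rny3, a Y RNA that binds the Ro protein, is very short and had 15.7, 29 and 47.2 CPM in CSS and 7.60, 13.3 and 19.3 CPM in its controls. Its T2D libraries had 28.1, 35.6 and 43.8 CPM, against 25.4, 31.8 and 38 CPM in the controls, with wide overlap. The changes of Rny3 were 1.21 and 0.19. The small nuclear RNA Gm24407 had 0.74 and 0.28, the long noncoding gene Gm47578 0.72 and 0.33, and the pseudogene CT009635.3 0.66 and 0.30. Libraries of this kind select fragments by size, so counts of RNAs as short as Rny3 are less certain.

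Gene size differed between the directions. The 25 genes that fell had a median of 3546 exon bases and a span of 10.1 kb in the GENCODE M21 annotation, against 4461 bases and 24.5 kb for all genes. The 12 of the 13 rising genes found there had medians of 5926.5 bases and 27.8 kb. Within protein-coding genes the medians were 3546 bases for those that fell, 6563 for those that rose and 4680 for all. With each library's slope of level on transcript length as a covariate, a setting chosen after seeing the data, edgeR called 24 genes, 12 in each direction, of which 8 were among the 38. Dnajc8, Pdap1, Gm43056, Ppm1k, BC005624, Dpp7, Pdcl and mt-Nd6 were those 8.

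Microglial genes were below their controls in both cohorts without passing the test singly. All 17 markers were below 0 in the average, 16 of them in each cohort (the exception, Tmem119, had 0.12 in CSS and -0.20 in T2D), and none was called by edgeR, with 12 at an unadjusted p under 0.05 in the average (14.8% of all genes) and 6 of those in both cohorts (1.02% of all genes, with 1 sign). The median change was -0.35 in CSS and -0.37 in T2D, against medians near 0 over all genes. C1qa (ENSMUSG00000036887, chr4:136895917-136898803, minus strand) had 15.4, 28 and 31 CPM in CSS and 32.4, 35.5 and 40.6 CPM in its controls, which did not overlap. In T2D it had 13.6, 17.2 and 31.6 CPM in T2D and 19.7, 26.4 and 32.8 CPM in its controls, with 5 of 6 libraries below the mean of the controls. The log2 changes were -0.46 ± 0.14 and -0.45 ± 0.16, and the average of -0.45 had an edgeR adjusted p of 0.0592. C1qb (-0.47, edgeR adjusted p 0.0628) and C1qc (-0.42, edgeR adjusted p 0.0562) were close to it, and the colony stimulating factor receptor Csf1r had -0.37 with an edgeR adjusted p of 0.0708. The summed level of the 17 markers was 237 to 452 CPM in CSS against 437 to 513 CPM in its controls, and 226 to 439 CPM in T2D against 259 to 455 CPM in its controls.

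B2m, which encodes beta-2 microglobulin of the MHC class I complex, was next to these, with 30.1, 42 and 45.1 CPM in CSS and 49.2, 51.5 and 55.6 CPM in its controls, and 30.1, 38.2 and 42.7 CPM in T2D and 30.0, 44.9 and 56.6 CPM in its controls. Its average was -0.31 ± 0.07 (edgeR adjusted p 0.0562), with -0.38 in CSS and -0.23 in T2D, and all 14 treated libraries were below the mean of their controls. The groups were apart in CSS and overlapped in T2D. Of 22 tested interferon-stimulated and MHC class I genes 0 were called by edgeR, 5 had an unadjusted p under 0.05 (14.8% of all genes), 15 were below 0 in both cohorts, and the median was -0.14. None of 10 blood leukocyte markers was in both tables. Red blood cell genes had a median of 0.76 in CSS and 0.07 in T2D, 0 of 6 were called, and 1 had an unadjusted p under 0.05 in the average, near that same share.

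The genes listed for glucocorticoids and for insulin did not pass, and the insulin list does not hold Rps6kb2. None of 24 glucocorticoid targets was called by edgeR, with 4 at an unadjusted p under 0.05 in the average, near the 14.8% of all genes, and a median of -0.08. Of the 24, 20 were below 0 in the average, 9 of them in both cohorts. The receptor co-chaperone Fkbp5 had -0.03 ± 0.10, and the kinase Sgk1 -0.17 ± 0.13. The target Fam107a had -0.08 in CSS and -0.51 ± 0.11 (unadjusted p 6.24e-05) in T2D, with an edgeR adjusted p of 0.0628 for the average and 0.225 for the difference. None of 33 genes of insulin and IGF signalling was called, with 9 at an unadjusted p under 0.05 against the same 14.8%, and a median of 0.04. The insulin receptor Insr had 0.17 ± 0.05 (edgeR adjusted p 0.12), with 0.21 in CSS and 0.14 in T2D. Txnip, which glucose induces in many cells, had -0.08 ± 0.09.

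Some lists had medians of opposite sign in the cohorts, and none of their genes was called by edgeR in the average. Immediate early genes had a median of 0.19 in CSS and -0.25 in T2D, and heat shock and unfolded protein response genes 0.11 and -0.22. Markers of striatal projection neurons had -0.22 and 0.56, and those of olfactory bulb neurons -0.24 and 0.69. The summed striatal level was 1413 to 2224 CPM in CSS, 1558 to 3128 CPM in its controls, 540.1 to 2829.6 CPM in T2D and 699.7 to 2552 CPM in its controls, a wide spread within each T2D group. The list of thalamic and hypothalamic markers, by contrast, had 0.28 and 0.38, from 6 genes tested of 12 listed. The hypothalamic peptide genes Avp, Oxt, Pomc and Hcrt were among those not tested. In a fit adjusted for striatal and thalamic scores, a setting chosen after seeing the data, edgeR called 5 genes, 2 of them (Dnajc8 and Gm43056) among the 38. The remaining 17 lists, among them astrocytes, oligodendrocytes, their precursors, endothelium, excitatory and inhibitory neurons, glycolysis, cholesterol synthesis, the proteasome and synaptic genes, had 0 genes called and medians from -0.10 to 0.12 in the average. Among these lists, inhibitory neurons also had medians of opposite sign, -0.09 in CSS and 0.31 in T2D. Whether the share of neighbouring tissue in the dissection plays a part was not tested further.

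Across all genes the 2 changes were barely correlated. Over the 14888 genes, which are not independent replicates, the log2 changes of CSS and T2D had a Pearson correlation of 0.0451 and a Spearman correlation of 0.0497, with no test, and 52.3% had the same sign. The cohorts share no mouse. An unadjusted p under 0.05 in both cohorts was found with 1 sign for 152 genes (1.02%) and with opposite signs for 91 (0.611%). When the larger of the 2 p-values of each gene was adjusted over all genes, none passed by edgeR (0%), and none by DESeq2 or limma voom. In fits of each cohort alone, edgeR called 4.52% of the CSS table, and in T2D it called none, with 5.84% of that table at an unadjusted p under 0.05. The 682 called CSS genes that both tables hold were then read in T2D: 56.5% had the same sign (52.1% of all genes), and 6.60% had an unadjusted p under 0.05 (5.86% of all). For those higher in CSS the same sign was found for 48.1%, and for those lower for 63.7%.

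**Figure D4:**
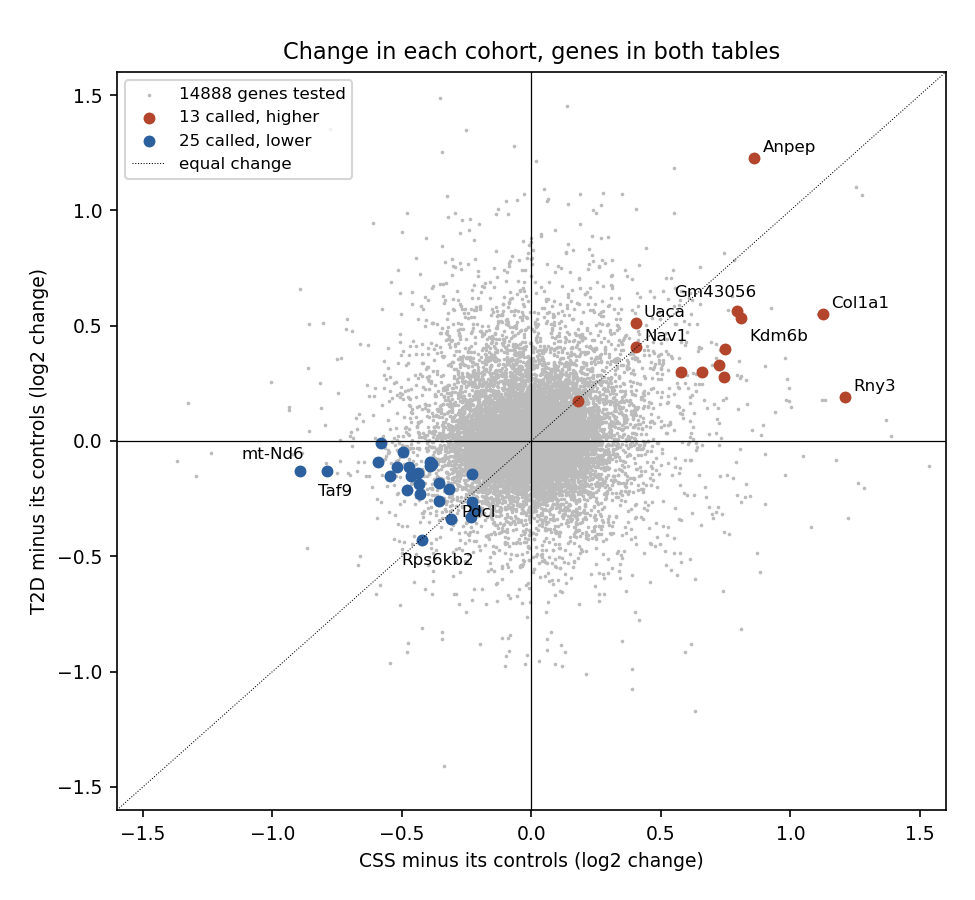
Log2 change in CSS (x axis) and T2D (y axis), each against its own controls. Grey points are the 14888 genes tested (7 lie outside the axes), red points the 13 genes that rose and blue points the 25 that fell in the average, and the dotted line marks equal change. The grey cloud shows no clear slope (Pearson correlation 0.0451), and most coloured points lie nearer the CSS axis.

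The 12 genes whose change differed between the cohorts had changes of opposite sign in CSS and T2D, in 12 of 12 cases. Choosing genes by the difference itself favours opposite signs. Igsf9b, an adhesion protein of inhibitory synapses, had 0.37 ± 0.10 in CSS and -0.40 ± 0.11 in T2D, and its average was -0.02. Its libraries had 172, 223 and 311 CPM in CSS and 150.2, 173 and 199 CPM in its controls, and 175, 195 and 246 CPM in T2D and 225, 251 and 342 CPM in its controls. Spred1, an inhibitor of Ras signalling, had 0.35 and -0.26, and Dnajc3, a co-chaperone of the endoplasmic reticulum, 0.27 and -0.27. The receptor Gpr12 went the other way, with -0.30 and 0.44. Each difference had an edgeR adjusted p of 0.0485.

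**Figure D5:**
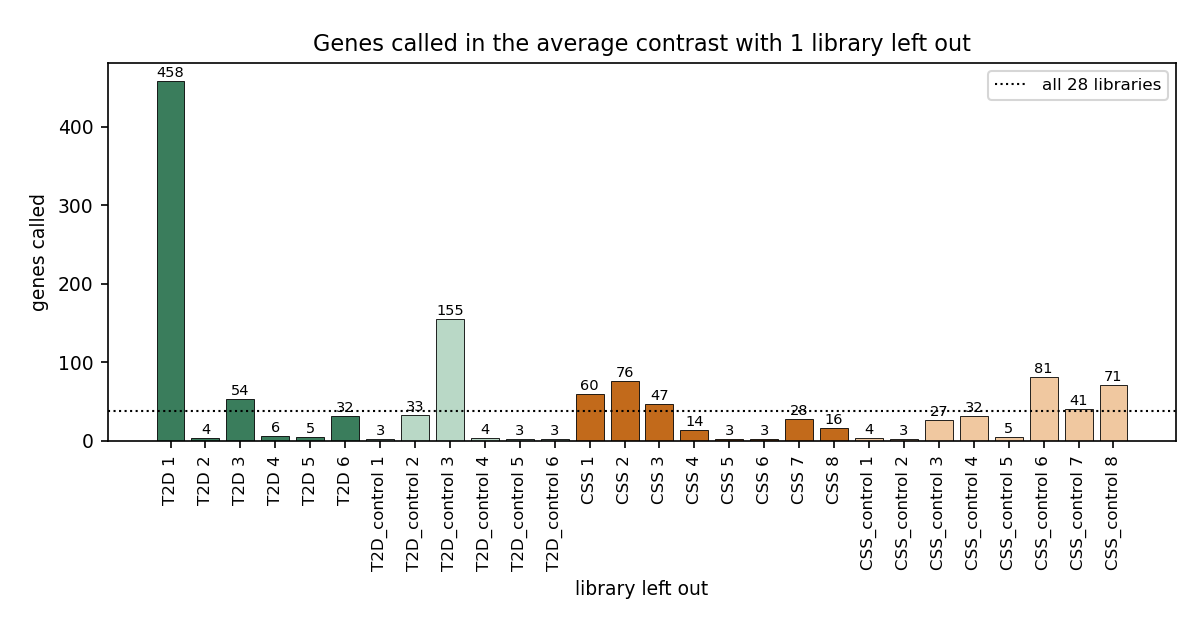
Number of genes called in the average (y axis) when each library (x axis) was left out in turn, coloured by group, with the count of all 28 libraries as a dotted line. Counts run from 3 to 458, the highest without T2D 1.

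The number of genes called depended on single libraries. Leaving out 1 library at a time gave 3 to 458 genes, with a median of 21.5. Without T2D 1 it was 458, with all 38 among them, and the T2D change of Dnajc8 was -0.20 in place of -0.15. Other libraries whose loss raised the count past 1.5 times were T2D control 3 (155), CSS control 6 (81), CSS 2 (76), CSS control 8 (71) and CSS 1 (60). It fell to 14 without CSS 4 and to 16 without CSS 8. It fell to 6 without T2D 4, to 5 without T2D 5 or CSS control 5, and to 4 without T2D 2, T2D control 4 or CSS control 1. It was 3 without T2D control 1, 5 or 6, CSS 5, CSS 6 or CSS control 2. Dnajc8, Pdap1 and Gm43056 passed in all 28 of these fits and Ppm1k in 21, the others in 6 to 17, and no gene of the 38 changed sign. Without both CSS 5 and T2D 1, a setting added with the data in view, the call count was 257, with all 38 among them. Without CSS controls 1 to 4, whose titles share a code of unstated meaning, edgeR called 0 (1860 at an unadjusted p under 0.05), and without CSS controls 5 to 8 it called 188, 32 of them among the 38.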

How the data were processed

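Per cohort, 1 table was deposited by the authors, holding estimated counts of each gene that were not whole numbers. Per the submitters' processing notes, Salmon 1.1.0 and build mm10 were used. How transcripts were summed to genes, scaled for length or counted by strand was not given in the sources used here. The tables were joined on the Ensembl identifier, counts were rounded to whole numbers, and 14888 genes in 28 libraries (12.1 to 37.5 M counts each) were fitted together with edgeR 4.0.16 (R 4.3.3), using TMM scaling, the default expression filter, which removed none, robust quasi-likelihood dispersions, 4 group means and Benjamini-Hochberg adjustment over all genes with a threshold of 0.05. Contrasts were the average, each cohort's change and their difference. The test for both cohorts took the larger p where the signs were the same. CPM were computed from the deposited counts with the TMM library sizes, and log2 CPM for scores used a prior count of 2. Counts of libraries above or below the mean of their controls were made on the same log2 CPM. The per-library slope on length was that of log2 level, less the gene's mean in the cohort, on log2 exon bases over 13511 protein-coding genes. Some results are not reported here. Samples were grouped by the treatment label and title. Annotation was GENCODE M21 (99.8% of genes found).

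Named genes were the 12 largest rises and falls among called genes, leaving out predicted models and genes whose mean log2 CPM is under 1, the 10 of smallest p, called or leading list members, 26 chosen genes and 5 differing genes in each direction. Other called genes are outside this rule and were named after their values were seen. The same holds for C1qb, Csf1r, Tmem119, Myh11, Rgs5, Vtn and Kcnj8, which were not called. The members and the 38 gene lists were chosen with earlier results of these data known. Alternatives used DESeq2 1.42.0, limma 3.58.1 (voom), sva 3.50.0, other scalings and filters, RIN, a replicate block and left-out libraries. The scripts were tested on simulated counts. Library values were compared by two-sided exact permutation within cohorts, adjusted over 6 values. The samples are separate mice, so p-values measure the spread between mice.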

Additional observations from a re-analysis of the deposited data

Results flagged for a closer look

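Among the 38 genes that passed in the average, 7 of 152 groups of libraries held a library far from the others (by Dixon's criterion), and chance gives about 1 in 20. CSS 5 was the distant library, and the highest, for Gm43056 (7.23 CPM), Uaca (16.5 CPM), Gm47578 (8.52 CPM) and Nav1 (193 CPM). T2D control 1 was the lowest for Gm43056 (2.85 CPM), T2D 4 the highest for Dpp7 (20.9 CPM), and T2D control 3 the highest for Wdr26 (135 CPM). Of 24 groups of library values 3 held such a library: CSS control 8 had a RIN of 10.0, CSS control 2 a total of 37.5 M counts and CSS 5 a slope on transcript length of 0.105.

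The change differed between the cohorts, by the test of the difference in edgeR with an adjusted p under 0.05, for the genes below. The CSS change exceeded the T2D change, on the log2 scale, by 1.12 for Snora74a, by 0.77 for Igsf9b, by 0.72 for Cdh19, by 0.63 for Sgsm1, by 0.60 for Spred1, by 0.54 for Dnajc3 and by 0.49 for 9330159F19Rik. The difference was -0.40 for Coro1b, -0.50 for C2cd2l, -0.55 for Sh3bgrl2 and -0.74 for Gpr12. Of the 7 with the larger CSS change, the naming rule takes 5, and the other 2 were named after their values were seen.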

How the results depend on the processing

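The count of 38 called genes in the average became 223 with DESeq2, 23 with limma voom, 64 with an additive model of cohort and stress, 14 with RIN as a covariate, 6 with 1 surrogate variable, 0 without CSS controls 1 to 4, 188 without CSS controls 5 to 8, 24 with the slope on length, 5 with the striatal and thalamic scores and 257 without both CSS 5 and T2D 1 (the last 3 chosen after seeing the data). All 38 genes were among the 223 of DESeq2 and 21 were among the 23 of voom. The cause of these changes was not tested. The 506 genes of CSS became 824 (DESeq2), 822 (surrogate variable), 0 (without CSS controls 1 to 4) and 784 (without 5 to 8), and the 0 of T2D became 5 (DESeq2) and 26 (without both libraries). The 12 genes that differed between cohorts became 103 (DESeq2), 150 (without CSS controls 5 to 8), 84 (slope), 32 (replicate block), 23 (filter at a mean log2 CPM of 3), 6 (upper quartile scaling) and 0 with voom, RIN, the surrogate variable, non-robust dispersions, without CSS controls 1 to 4 and with the striatal and thalamic scores. Genes at an unadjusted p under 0.05 in both cohorts, 152, became 94 (RIN), 84 (surrogate variable), 93 (without CSS controls 1 to 4), 78 (striatal and thalamic scores) and 247 (without both libraries). None passed in both cohorts after adjustment under any of these settings. Leaving out 1 library gave 3 to 458 genes in the average, 181 to 681 in CSS, 0 to 4 in T2D, 0 to 32 for the difference, 0 in both cohorts and 97 to 332 at both unadjusted p.

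The replicate numbers did not pair the mice: the correlation of same-numbered libraries ran from -0.169 to 0.327, above 0.1 in 4 of 14 pairs, and 2 of 14 correlated best with their own number. With the replicate block edgeR called 52 genes in the average, 12 higher and 40 lower, 27 of them among the 38. Groups of 6 and 8 mice limit what can be called at the small changes seen here.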
